A study of Mus musculus with 23 samples.

Results

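The core circadian clock of mouse muscle was followed here through 8 genes, measured in the quadriceps of 23 mice. Arntl, Clock and Npas2 encode the activators, and Per1, Per2, Per3, Cry1 and Cry2 encode the repressors. They were matched by symbol among 55573 Ensembl genes counted in each mouse, and all 8 were found and passed the filter on low counts. The mice were C57BL/6J, 8 to 10 weeks old, with a slow-release pellet under the skin of the neck for 14 days and without food for the last 5 h. Female_VEH (n = 6) and Male_VEH (n = 6) had a pellet of 100 mg cholesterol, and Female_CORT (n = 5) and Male_CORT (n = 6) had one of 50 mg corticosterone and 50 mg cholesterol. Corticosterone is the main glucocorticoid of the mouse, and the comparisons asked how the muscle of each sex responded to it. Mice are named by sex and number, so that F11 is female mouse 11.

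CLOCK or its relative NPAS2 pairs with BMAL1, the product of Arntl, and the pair binds E-box elements and switches on the Per and Cry genes. PER and CRY proteins then block that pair, which closes a loop of about a day. In the other loop, REV-ERB receptors (Nr1d1, Nr1d2) repress Arntl and ROR receptors (such as that of Rora) activate it. The clock runs in muscle cells themselves, is set by food, activity and hormones, and Per1 is a known direct target of the glucocorticoid receptor. A tissue taken once shows the clock at a single moment. The clock hour at which the sequenced mice were killed is not given in the sources used here, so a shift in timing and a change in mean level cannot be told apart in any result that follows.

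Each mouse had between 20904150 and 21984477 counts on genes, and TMM-normalized CPM is the unit of every level below, which scales each gene's count to the library size over tested genes. The treatment was checked with Fkbp5, a standard target of the glucocorticoid receptor, which went from 22.7 to 58.8 CPM in vehicle-treated males to 293 to 422 CPM in treated males. In females it went from 12.5 to 48.4 CPM to 149 to 278 CPM. Tsc22d3, which encodes GILZ and is another such target, rose in males from 119 to 220 CPM to 233 to 439 CPM (log2 fold change 0.9995, SE 0.26, adjusted p 0.00421 by edgeR). In females it was not called (0.57, SE 0.27, adjusted p 0.119 by edgeR), with 99.2 to 203 CPM under vehicle and 372 (F2), 87.8 (F4), 359 (F6), 223 (F8) and 252 CPM (F10) under corticosterone. F4 thus lay below every vehicle-treated female. All 8 skeletal muscle markers passed the filter. Their summed level was 79733 CPM in F10 and 94444 CPM in F6, and 120655 to 207946 CPM in the other mice. F6 also had the highest adipocyte marker sum of the series, at 4147 CPM. The median of that sum was 1808 CPM in Female_CORT and 549 CPM in Female_VEH. Among treated females, F6 was the highest for Per1, Per2, Per3 and Cry2. Erythrocyte markers were higher in treated mice (4 of 5 called higher in each sex, summed level 189 to 674 against 104 to 204 CPM in males and 293 to 602 against 84.9 to 398 CPM in females), and fibroblast markers lower in treated males (2 of 4 called lower, summed level 308 to 477 against 582 to 1074 CPM). Hepatocyte markers, which muscle should lack, summed to 2309 CPM in F10, 2355 CPM in M8, 1392 CPM in M9, 1377 CPM in M12 and 1046 CPM in F6, and to at most 297 CPM in the other mice. In bulk tissue, fewer cells of a type and less RNA per cell cannot be told apart. Without F10 and M8, and also without all 5 of these mice, Per1 and Cry2 were called in males and no member in females by edgeR. Npas2 did not pass the filter without all 5. The filter asks for 4 mice of any 1 group, and without F6 and F10 fewer were left in Female_CORT, where Npas2 was highest. The female result of that fit rests on those few treated mice. The part of the muscle, adipocyte, erythrocyte and fibroblast markers in the clock results was not tested. Whether males and females were processed together is not given in the sources used here, so a batch and the sex cannot be told apart in comparisons between the sexes.

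Per1 and Cry2 were higher in corticosterone-treated males, by 2.64-fold and 2.21-fold, and none of the 8 members passed the test in females. A gene was called at an adjusted p under 0.01 by the quasi-likelihood test of edgeR, with p-values of 13049 genes adjusted after Benjamini and Hochberg. The male count of 2 of 8 is read against a background of 26.3% of all tested genes called in that comparison, with 13.2% called higher, and the female count of 0 of 8 against 13.4%, with 7.40% called higher. The share of members called in males was thus near that of genes in general. The median log2 fold change of the members was 0.03 in males, beside -0.02 over all tested genes, and 0.24 in females, beside 0.04. In females 3 members had an unadjusted p under 0.05 by edgeR (Clock, Npas2 and Per3). So had 5035 of 13049 tested genes, a share near that of the members. In females 0 of 8 had treated mice all above or all below the vehicle-treated ones, as 3.38% and 4.34% of tested genes had. No member passed the test for a difference between the sexes in the response, where 0.690% of tested genes did. In that test 4 members had an unadjusted p under 0.05 (Npas2, Per1, Per3 and Cry2), as had 4187 of 13049 tested genes.

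**Figure D1:**
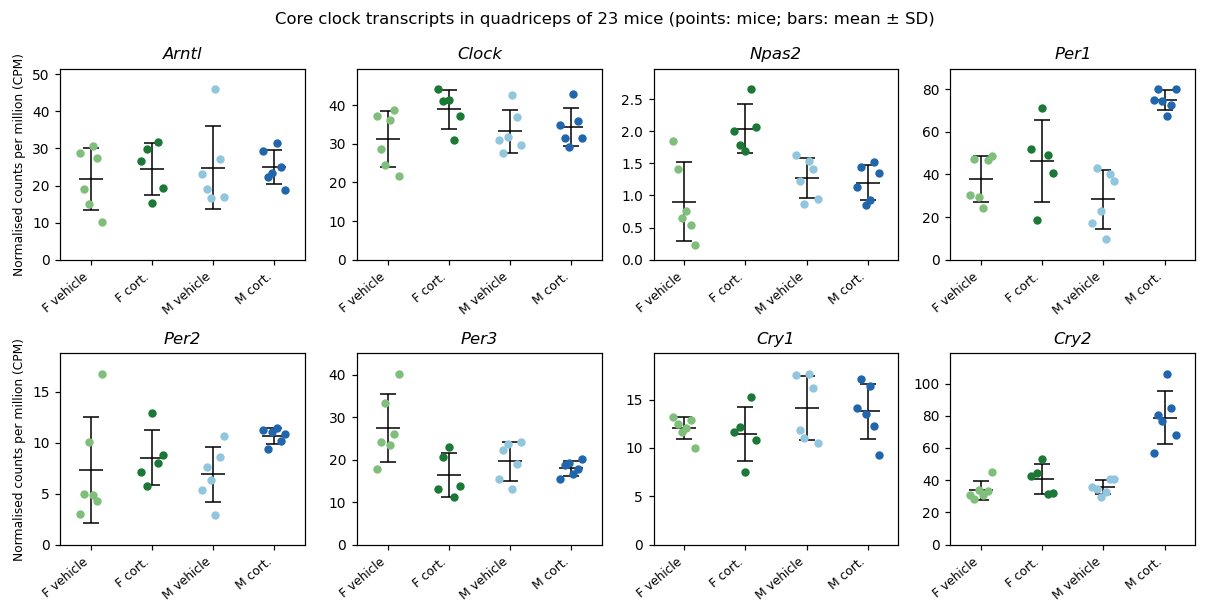
Each panel shows 1 core clock gene. The y axis is its level in normalized CPM, each point is a mouse, the horizontal bars are group means and the error bars are SD (Female_VEH n = 6, Female_CORT n = 5, Male_VEH n = 6, Male_CORT n = 6). The 6 treated males lie above all 6 vehicle-treated males for Per1 and Cry2, while treated and vehicle-treated mice overlap for the other 6 genes in males and for all 8 in females.

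Levels were set in order after division by exon length, as CPM per kb. Genes on the same strand overlap Npas2 (Gm3617), Clock (Gm43658 and Ube2n-ps1) and Per3 (Camta1). Read pairs that fell on more than a single gene were not counted, and the effect on these levels was not tested. Npas2 was the lowest in every group, from 0.19 ± 0.13 CPM per kb (SD, n = 6) in Female_VEH to 0.43 ± 0.08 (SD, n = 5) in Female_CORT. Per1 was the highest in 3 groups, with 13.3 ± 0.85 CPM per kb (SD, n = 6) in Male_CORT, and Cry2 was the highest in Male_VEH with 5.65 ± 0.71 (SD, n = 6). Per1 and Cry2 were always neighbours in the order, and their ranges of mean ± SD overlapped in all 4 groups. Cry1 followed with 3.43 to 4.23, then Arntl with 2.90 to 3.33 CPM per kb, and their ranges of mean ± SD overlapped in all 4 groups. Clock and Per3 came next, in either order, and Per2 stood just above Npas2 with 1.18 to 1.82 CPM per kb. The gap between Per2 and Npas2 exceeded 1 SD of each in every group, and Cry2 stood above Cry1 by more than 1 SD of each in every group but Male_VEH, where Per1 lay between them.

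The windows around the start sites carry letters known to be read by clock factors. Windows of 250 bases before to 50 after each start were at hand from RefSeq (GRCm38.p6) for 7 of 8 members, 11 windows in all, and the missing entry was Per2. E-box forms were found at Per1, Cry1 and Cry2 but not at Per3, and the REV-ERB/ROR element at Arntl. Whether the matches go with the members' roles was not tested. Capitals mark the match, and each sequence is read along its gene's strand.
Per1 E-box, chr11:69098763-69098808, plus strand: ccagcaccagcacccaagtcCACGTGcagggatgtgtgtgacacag
Per1 CRE half-site, chr11:69100000-69100046, plus strand: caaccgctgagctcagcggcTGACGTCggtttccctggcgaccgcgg
Per3 upstream D-box, chr4:151044843-151044890, minus strand: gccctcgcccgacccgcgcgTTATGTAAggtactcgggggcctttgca
Per3 downstream D-box, chr4:151044796-151044843, minus strand: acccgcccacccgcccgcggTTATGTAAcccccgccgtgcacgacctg
Cry1 E-box, chr10:85185089-85185134, minus strand: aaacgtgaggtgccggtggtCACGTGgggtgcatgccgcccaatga
Cry2 E-prime box, chr2:92434210-92434255, minus strand: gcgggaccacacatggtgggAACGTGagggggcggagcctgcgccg
Arntl REV-ERB/ROR element, chr7:113207529-113207556, plus strand: gaaggcagaAAGTAGGTCAgggacggag
The motifs were searched on both strands. The E-box CACGTG was in 7.15% of all 32817 windows and the E-prime box CACGTT, shown for Cry2 as it reads from the other strand, in 4.69%. The D-box TTATGTAA, read by DBP, TEF, HLF and NFIL3, was in 0.935%, and Per3 held it at positions -205 and -158 from its start. The REV-ERB/ROR element, whose letters are the capitals shown for Arntl with any base in place of G at its position 3, was in 0.219% and lay at position 28 of the second Arntl start. The CRE half-site TGACGTC, read by CREB, was in 3.21% and lay at position -132 of the second Per1 start. Cry1 held its E-box at -60 and also an E-prime box at -79, whose letters begin the sequence shown for Cry1. The glucocorticoid response element, an inverted repeat of AGAACA with 3 free bases between its arms, was in 3 of all windows and in no member's. The 6 motifs overlapped one another at no printed match. Clock and Npas2 held none of the 6. A match describes letters and not a bound site, and the lack of one says only that those letters are not in this window.

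Among the activators, Arntl (ENSMUSG00000055116, chr7:113207465-113314126, plus strand, GRCm38) encodes BMAL1, without which the mouse clock stops. It ranged from 16.6 over a median of 21.1 to 46.0 CPM in Male_VEH and from 18.9 over 24.2 to 31.6 CPM in Male_CORT. Female_VEH ranged from 10.1 over 23.2 to 30.6 CPM. The treated females had 26.5 (F2), 29.8 (F4), 15.4 (F6), 31.9 (F8) and 19.3 CPM (F10). Treated mice lay among vehicle-treated mice in both sexes, and the highest and lowest mice of the series, M7 and F11, were both vehicle-treated. The log2 fold change was 0.01 (SE 0.27) in males and 0.17 (SE 0.28) in females, with adjusted p of 0.973 and 0.691 by edgeR. The 95% interval ran from -0.54 to 0.57 in males and from -0.41 to 0.75 in females.

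Clock (ENSMUSG00000029238, chr5:76209868-76304792, minus strand) encodes the usual partner of BMAL1. It ranged from 27.6 to 42.6 CPM in Male_VEH and from 29.1 to 42.8 CPM in Male_CORT, and the log2 fold change was 0.05 (SE 0.14). In females it ranged from 21.6 to 38.7 CPM with vehicle. The treated females had 44.2 (F2), 41.0 (F4), 41.3 (F6), 31.0 (F8) and 37.3 CPM (F10). Of the 5, 3 lay above every vehicle-treated female. Treated females had a log2 fold change of 0.32 (SE 0.15) and an adjusted p of 0.106 by edgeR, so the difference was not called.

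Npas2 (ENSMUSG00000026077, chr1:39193731-39363236, plus strand) encodes a relative of CLOCK that can take its place, and it had the fewest counts of the 8 genes, with 653 over all 23 mice. In Female_VEH it ranged from 0.22 over 0.70 to 1.85 CPM, an 8.41-fold range. The treated females had 2.001 (F2), 1.78 (F4), 1.70 (F6), 2.66 (F8) and 2.07 CPM (F10). All 5 exceeded 5 of the 6 vehicle-treated females, and 2 of them lay below F1, the highest. For Npas2 the female log2 fold change was 1.17 (SE 0.33, 95% interval 0.49 to 1.85), a 2.25-fold difference, with an adjusted p of 0.0123 by edgeR, just outside the threshold, and it was called in 5 of the 32 alternative settings that kept it. In males it ranged from 0.87 to 1.64 CPM with vehicle and from 0.85 to 1.52 CPM with corticosterone, with a log2 fold change of -0.08 (SE 0.32). The difference between the sexes in the response was -1.25 (SE 0.46, 95% interval -2.20 to -0.30) on the log2 scale, with an adjusted p of 0.0714 by edgeR. All 6 treated males lay below all 5 treated females, as did 5.55% of tested genes, and that comparison had an adjusted p of 0.0673.

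Among the Per genes, Per1 (ENSMUSG00000020893, chr11:69095217-69109960, plus strand) encodes a repressor that also responds within hours to signals from outside the clock. It ranged from 9.66 over 29.9 to 42.9 CPM in Male_VEH and from 67.4 over 74.6 to 80.0 CPM in Male_CORT. The lowest treated male exceeded the highest vehicle-treated male, as was so for 10.8% of tested genes, and the range was 1.19-fold with treatment and 4.44-fold with vehicle. In males the log2 fold change of Per1 was 1.40 (SE 0.30, 95% interval 0.77 to 2.03), with an adjusted p of 0.00099 by edgeR. Female_VEH ranged from 24.3 over 38.7 to 48.5 CPM. The treated females had 51.9 (F2), 18.6 (F4), 71.3 (F6), 49.0 (F8) and 40.5 CPM (F10). These 5 mice spread 3.83-fold, from below the lowest vehicle-treated female to above the highest. The log2 fold change in females was 0.29 (SE 0.31) with an adjusted p of 0.522, and the difference between the sexes was 1.11 (SE 0.44, 95% interval 0.20 to 2.01) with an adjusted p of 0.0891 by edgeR. The E-box and CRE half-site shown above belong to this gene.

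Per2 (ENSMUSG00000055866, chr1:91415982-91459324, minus strand) encodes a repressor central to the length of the day that the clock keeps. It ranged from 2.87 over 6.93 to 10.7 CPM in Male_VEH and from 9.34 over 10.97 to 11.4 CPM in Male_CORT. The treated males sat close together. M2, M6, M8 and M12 lay above every vehicle-treated male, and M4 and M10 lay below M11, the highest vehicle-treated male. For males the log2 fold change was 0.63 (SE 0.33), with an adjusted p of 0.137 by edgeR. In females it ranged from 3.03 over 4.92 to 16.7 CPM with vehicle and from 5.78 over 8.02 to 12.9 CPM with corticosterone. The female log2 fold change was 0.21 (SE 0.35, 95% interval -0.50 to 0.93), and without F11, the vehicle-treated female at 16.7 CPM, it was 0.64. Without the 5 mice of high hepatocyte markers it was -0.092.

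Per3 (ENSMUSG00000028957, chr4:151003652-151044665, minus strand) is the Per gene least needed for the rhythm itself, and Camta1 overlaps it on the same strand. In Female_VEH it ranged from 17.7 over 25.1 to 40.2 CPM. The treated females had 13.0 (F2), 20.7 (F4), 22.99 (F6), 11.3 (F8) and 13.8 CPM (F10). Of the 5, 3 lay below all vehicle-treated females, and F4 and F6 lay within their range. The log2 fold change was -0.75 (SE 0.20, 95% interval -1.17 to -0.32), a 1.68-fold lower level, and its adjusted p of 0.0102 by edgeR lay just outside the threshold. It was called in 9 of 33 alternative settings. In males it ranged from 13.1 to 24.1 CPM with vehicle and from 15.4 to 20.1 CPM with corticosterone, with a log2 fold change of -0.12 (SE 0.19) and an adjusted p of 0.636 by edgeR. The difference between the sexes was 0.63 (SE 0.28), with an adjusted p of 0.130. Both D-boxes shown above lie before the start of this gene.

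Among the Cry genes, Cry1 (ENSMUSG00000020038, chr10:85131700-85185064, minus strand) encodes the stronger and later of the cryptochrome repressors. Its levels were 10.5 to 17.6 CPM in Male_VEH, 9.21 to 17.1 CPM in Male_CORT, 9.97 to 13.2 CPM in Female_VEH and 7.48 to 15.3 CPM in Female_CORT. The groups overlapped throughout. The log2 fold changes were -0.04 (SE 0.17, 95% interval -0.38 to 0.31) in males and -0.07 (SE 0.18, 95% interval -0.43 to 0.30) in females.

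Cry2 (ENSMUSG00000068742, chr2:92403646-92434043, minus strand) encodes the other cryptochrome repressor. It ranged from 29.4 over 35.2 to 41.0 CPM in Male_VEH and from 56.8 over 78.6 to 106 CPM in Male_CORT. As for Per1, the groups of males did not overlap. Treated males were higher by a log2 fold change of 1.14 (SE 0.15, 95% interval 0.84 to 1.45), with an adjusted p of 4.43e-06 by edgeR. Female_VEH ranged from 28.5 over 32.2 to 45.0 CPM. The treated females had 42.9 (F2), 44.6 (F4), 53.2 (F6), 31.2 (F8) and 32.3 CPM (F10). F6 alone lay above every vehicle-treated female, and F8 and F10 lay near the vehicle median. The female log2 fold change was 0.28 (SE 0.15, 95% interval -0.04 to 0.59), with an adjusted p of 0.191 by edgeR, and without F11 it was 0.37. The difference between the sexes was 0.87 (SE 0.21, 95% interval 0.43 to 1.31), with an adjusted p of 0.0181 by edgeR, outside the threshold. D930015M05Rik overlaps Cry2 on the other strand, and the counting used the strand.

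**Figure D2:**
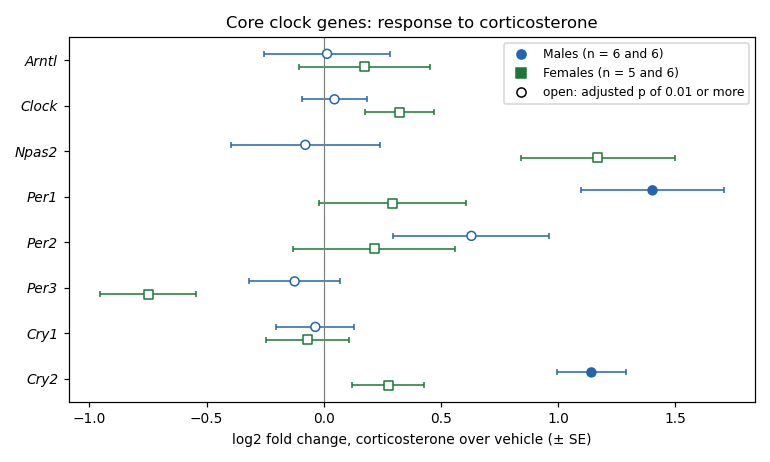
The x axis is the log2 fold change of treated over vehicle-treated mice and the y axis lists the 8 core clock genes, with bars of 1 SE. Circles are males (n = 6 and 6), squares are females (n = 5 and 6), and filled symbols are past an adjusted p of 0.01. Only Per1 (1.40) and Cry2 (1.14) in males are filled, while Npas2 (1.17) and Per3 (-0.75) in females are the open symbols farthest from 0.

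Between vehicle-treated males and females no member was called, beside 0.958% of tested genes, and no member's groups failed to overlap, beside 1.62% of tested genes wholly higher and 0.935% wholly lower in males. Per3 alone had an unadjusted p under 0.05, with a log2 difference of -0.49 (SE 0.19, male minus female) and an adjusted p of 0.231 by edgeR. Between treated males and females 1 of 8 members was called, beside 23.3% of tested genes (9.31% higher in males). It was Cry2, which was 1.93-fold higher in treated males (log2 difference 0.95, SE 0.16, adjusted p 0.000188 by edgeR), and all 6 treated males lay above all 5 treated females, as did 6.87% of tested genes. These comparisons share mice with the comparisons of treatment.

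The spread among mice was also compared, as a description with no test. The SD of log2 CPM was smaller in treated than in vehicle-treated males for 7 of 8 members, Cry2 being the exception, beside 48.0% of tested genes. Per1 had a CV of 6.36% in Male_CORT and 48.4% in Male_VEH, and Per2 had 7.36% and 39.1%. Without M7 the count was 6 of 8. In females the SD was smaller in treated mice for 4 of 8 members, beside 33.0% of tested genes.

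Mice of the same group differed in their clock genes together. For each of the 28 pairs of members, the correlation of log2 CPM was computed over the 23 mice after removing group means, with a two-sided permutation test (100000 permutations of mice within groups, Benjamini-Hochberg adjustment over 28 pairs, threshold 0.05). Groups differ in spread, so that p does not follow the size of r from pair to pair. In this test 16 pairs passed, 7 positive and 9 negative. Of the 9 pairs of an activator with a Per gene 6 passed, all negative. Of the 3 pairs among Per genes 2 passed, both positive. Cry1 was positive with Arntl and Npas2 and negative with Per2 and Per3. Its pairs with Clock (r = 0.28) and Per1 (-0.42) did not pass. Cry2 had pairs with Per1 (r = 0.21), Arntl (-0.27) and Clock (0.07) that did not pass. It was positive with Per2 and Per3 and negative with Npas2. In females and males its r was 0.81 and 0.07 with Per3, 0.55 and 0.28 with Per2, and -0.68 and -0.03 with Npas2. None of these pairs of Cry2 passed the permutation test of Spearman's rho (adjusted p 0.071, 0.166 and 0.166).

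Arntl and Per2 had the most negative correlation, with Pearson's r = -0.81 (permutation p = 0.00045, adjusted 0.00291) and Spearman's rho = -0.72 (permutation p = 0.0015, adjusted 0.0084). Arntl and Per3 had r = -0.78 (permutation p = 0.00025, adjusted 0.00233) and rho = -0.72 (permutation p = 0.00094, adjusted 0.0084). Arntl and Cry1 had r = 0.72, with a permutation p of 1e-05, the smallest these permutations can give (adjusted 0.00028), and rho = 0.75 (permutation p = 6e-05, adjusted 0.00168). Arntl and Clock had r = 0.72 (permutation p = 0.00117, adjusted 0.00455) and rho = 0.65 (permutation p = 0.00449, adjusted 0.021). A mouse high in Arntl for its group was thus high in Clock and Cry1 and low in Per2 and Per3. Per3 and Cry1 had r = -0.70 (permutation p = 6e-05, adjusted 0.00084) and rho = -0.67 (permutation p = 0.00109, adjusted 0.0084).

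Much of this rested on few mice. Among them were M7 and F11, whose Arntl levels of 46.0 and 10.1 CPM were the highest and the lowest of the series. Each pair was also tested without the 2 mice farthest from the median of its first gene. These were F11 and M7 for pairs led by Arntl, Clock or Per2, and F1 and F11 for Npas2 or Per3. They were F4 and M7 for Per1, and F6 and M12 for Cry1. Then 2 of 28 pairs passed, Arntl with Cry1 (r = 0.71) and Per3 with Cry1 (r = -0.71). Arntl with Per2 then had r = -0.60, Arntl with Per3 r = -0.65 and Arntl with Clock r = 0.52. Without F11 9 pairs passed, and without M7 10 pairs. Within each sex, 12 pairs passed among females and 2 among males. Within each treatment, 14 passed among vehicle-treated and 0 among treated mice by the same permutation test. Among the 11 treated mice Arntl with Cry1 had r = 0.80, Arntl with Per2 -0.61, Arntl with Per3 -0.57 and Per1 with Per2 0.76, where vehicle-treated mice had 0.75, -0.87, -0.89 and 0.59. Arntl with Clock had 0.13 in treated and 0.94 in vehicle-treated mice, and Clock with Per2 0.04 and -0.84. The difference between treatments in these correlations was not tested. M7 and F11 deviated in opposite directions, and each had the lowest adipocyte and macrophage marker sums of its group. For fibroblast markers F11 was the highest of its group and M7 at position 2 of 6 from the highest. For endothelial markers both stood at position 2 of 6. The part of cell makeup in these correlations was not tested, nor that of a factor shared by males and females of the same number.

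**Figure D3:**
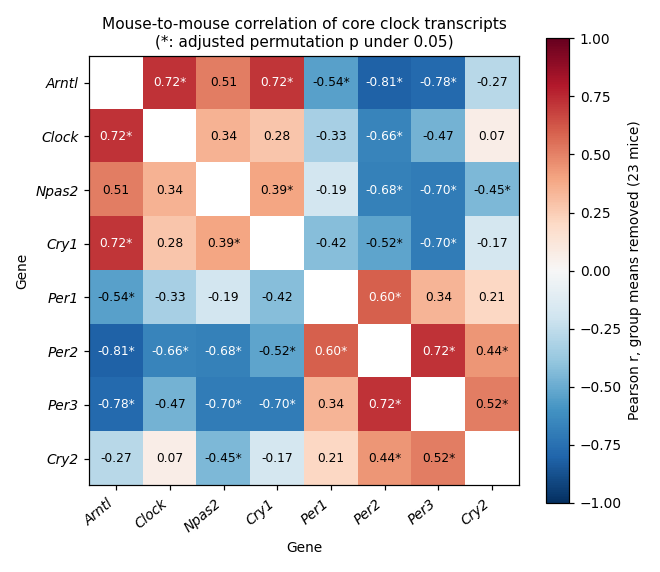
Both axes list the 8 core clock genes, and each cell gives Pearson's r between a pair over 23 mice with group means removed, from blue (negative) to red (positive). A star marks an adjusted permutation p under 0.05. Arntl, Clock, Npas2 and Cry1 form a mostly red block, Per1, Per2, Per3 and Cry2 another, and the cells between them are mostly blue, down to -0.81 for Arntl and Per2.

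**Figure D4:**
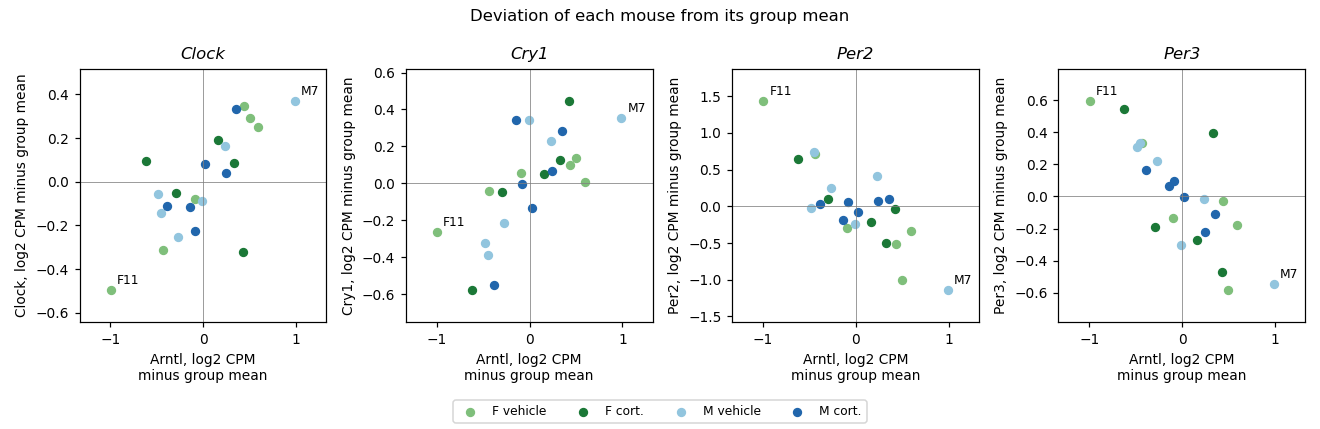
Each point is a mouse, coloured by group. The x axis is the deviation of Arntl from its group mean and the y axis that of Clock, Cry1, Per2 or Per3, both in log2 CPM. M7 lies at the right end and F11 at the left end of each panel, and without both r is 0.52 for Clock, 0.71 for Cry1, -0.60 for Per2 and -0.65 for Per3.

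The genes whose mouse-to-mouse pattern was most like that of Arntl, members aside, were Nfil3 (r = 0.84), Homer1 (0.80), Sac3d1 (0.80) and March4 (0.79), over 23 mice with group means removed. The most opposite were Tspan4 (-0.82), Coq10b (-0.80), Plekha5 (-0.79), Ick (-0.78) and Fmo2 (-0.77). The median size of r with Arntl over all 13049 tested genes was 0.26. In the order of all tested genes from most negative, Per2 stood at position 2 and Per3 at position 5. Among other clock genes, Nr1d1 had r = 0.71, Fbxw11 0.70, Rora 0.38 and Csnk1d 0.31. Negative values were those of Ciart (-0.73), Dbp (-0.70), Hlf (-0.52) and Usp2 (-0.50). Smaller in size than the median were Gsk3b (0.23), Csnk1e (0.20), Btrc (0.01), Bhlhe40 (-0.03), Tef (-0.05), Nr1d2 (-0.13) and Bhlhe41 (-0.22). These values come from the same 23 mice for every gene, the extreme mice M7 and F11 among them, with no test.

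Other genes of the clock network include receptors, output factors, further repressors and enzymes that act on clock proteins. Of 18 listed genes 16 were tested (Rorb and Fbxl21 had too few counts), and in males 4 were called higher, 5 lower and 7 not, while in females 0 were called higher, 7 lower and 9 not. Of all tested genes 13.2% were called higher and 13.1% lower in males, and 7.40% higher and 783 of 13049 lower in females. Without the 5 mice of high hepatocyte markers 4 of the listed genes were called higher and 4 lower in males, and 0 higher and 3 lower in females. Nr1d1, Nr1d2, Dbp, Hlf and Bhlhe41 fell in both. None of the 16 passed the test for a difference between the sexes in the response by edgeR. Of them 6 had an unadjusted p under 0.05, beside 4187 of 13049 tested genes. The calls of Dbp and Bhlhe41 held in both sexes in all 33 alternatives, while Nr1d1 was called in females in 24, Nr1d2 in males in 26, Btrc in females in 22, Csnk1e in males in 22 and Csnk1d in females in 15 of 33.

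Among the receptors of the other loop, Rora rose in males (log2 fold change 0.74, SE 0.17, adjusted p 0.00147 by edgeR) and had -0.18 (SE 0.18) in females. Nr1d1, which encodes REV-ERB alpha, fell by 0.67 (SE 0.16) on the log2 scale in males and by 0.71 (SE 0.17) in females. Arntl, on which these receptors act, differed by 0.01 and 0.17 in the same mice.

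Among the output factors that bind D-boxes, Dbp showed the largest difference of the clock genes tested. It lay at 56.0 to 131 CPM in Male_VEH and at 9.17 to 25.4 CPM in Male_CORT, and at 58.9 to 189 CPM in Female_VEH and 8.68 to 15.7 CPM in Female_CORT. No treated mouse reached the lowest vehicle-treated mouse of its sex, as was so for 11.1% of tested genes in males and 4.34% in females. The log2 fold change was -2.73 (SE 0.31, adjusted p 7.88e-07 by edgeR) in males and -3.10 (SE 0.33, adjusted p 3.18e-06) in females. Hlf fell by 0.84 (SE 0.16) and 0.88 (SE 0.17) on the log2 scale. Tef was not called, with 0.12 (SE 0.10, adjusted p 0.374 by edgeR) in males and -0.36 (SE 0.11, adjusted p 0.0182) in females. Its mean was 278 CPM in Male_VEH and 306 CPM in Female_VEH, where Dbp had 93.0 and 114 CPM. Nfil3, whose product represses at D-boxes, rose in males by a log2 fold change of 1.28 (SE 0.31, adjusted p 0.00226 by edgeR), and had 0.90 (SE 0.32) with an adjusted p of 0.0384 in females. Per3, which alone held D-boxes among the 7 members with a promoter window, had -0.12 in males and -0.75 in females. A link between Per3 and these factors was not tested.

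Among other repressors, Bhlhe41 (DEC2, which competes for E-boxes) fell by 1.28 (SE 0.15) on the log2 scale in males and by 1.17 (SE 0.16) in females. It was also higher in vehicle-treated males than in vehicle-treated females (log2 difference 0.82, SE 0.15, adjusted p 0.00223 by edgeR). Ciart, a repressor of CLOCK and BMAL1, had -0.05 (SE 0.42) in males and -1.64 (SE 0.47, adjusted p 0.0138 by edgeR) in females. Among kinases and ubiquitin enzymes acting on clock proteins, Gsk3b (0.70, SE 0.15) and Csnk1e (0.41, SE 0.12) rose in males, and Csnk1d (-0.26, SE 0.07) and Btrc (-0.25, SE 0.07) fell in females.

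**Figure D5:**
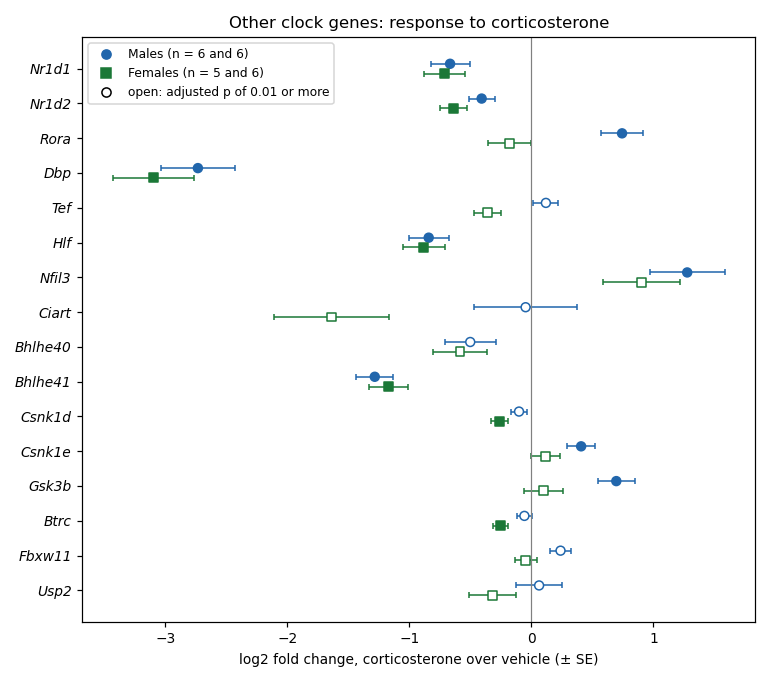
The x axis is the log2 fold change of treated over vehicle-treated mice and the y axis lists 16 other clock genes, with bars of 1 SE. Circles are males (n = 6 and 6), squares are females (n = 5 and 6), and filled symbols are past an adjusted p of 0.01. Dbp lies farthest to the left in both sexes (-2.73 and -3.10), and Nfil3 farthest to the right in males (1.28).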

How the data were processed

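RNA of the quadriceps of 23 mice was sequenced as stranded mRNA libraries. Per the labels and the methods, the authors aligned reads with STAR 2.7.3a to mm10, counted read pairs that fell on a single Ensembl gene with HTSeq 0.12.4 using the strand, and deposited raw counts per gene and mouse. Of 55573 gene IDs, 55480 were matched to GENCODE M21 symbols, and 5 summary entries (10.7% to 15.3% of read pairs) were left out. Replicates are separate mice, and no pair of replicates agreed within sampling noise (chi-square over its degrees of freedom at least 15.1).

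Here the counts were fitted in R 4.3.3 with edgeR 4.0.16 (glmQLFit and glmQLFTest, TMM, 1 mean per group, all 23 mice), over the 13049 genes that exceeded 20 normalized counts in 4 or more mice of any 1 group. Benjamini-Hochberg adjustment covered all of them, and the threshold was 0.01. Library sizes for CPM are sums over tested genes, and log2 CPM used a prior count of 1. SE came from the F statistic. Groups come from the titles. The scripts were tested on simulated data. Alternatives were DESeq2 1.42.0, which the study's methods name, limma-voom (limma 3.58.1), other scalings, filters and thresholds, each sex alone, a replicate block and leaving out mice. Chosen after seeing the data were the correlations within each treatment and a fit without the 5 mice whose hepatocyte markers summed to over 1000 CPM.

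The rule for named genes covered the 8 members, 20 other clock genes, Fkbp5, Tsc22d3 and, for likeness to Arntl, the 5 highest and 5 lowest correlations. A few of these are left out, so that counts cover 18 of the 20 and 4 of the highest are named. The members and lists were chosen with earlier results of these data known. Marker lists covered skeletal muscle, slow fibers, adipocytes, hepatocytes, erythrocytes, Schwann cells, macrophages, endothelial cells and fibroblasts. Besides those given in the report, 1 skeletal muscle marker was called lower and 1 adipocyte marker higher in treated females, and 0 of the other lists' markers were called in either sex by edgeR.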

Additional observations from a re-analysis of the deposited data

Results flagged for a closer look

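In Male_VEH, mouse M7 stood apart from its group in Arntl, at 46.05 CPM where the other 5 vehicle-treated males had 16.57 to 27.26 CPM, a gap of 0.6375 of the whole range. In Female_VEH, mouse F11 stood apart in Cry2, at 45.05 CPM where the other 5 vehicle-treated females had 28.48 to 33.83 CPM, a gap of 0.677 of the range. Each of the 8 genes was looked at in each of 4 groups, 32 in all, and chance sets a mouse apart in about 1 in 20 groups. M7 also had the lowest Per1 and Per2 levels of the vehicle-treated males (9.66 and 2.87 CPM), and F11 the highest Per2 and Per3 levels of the vehicle-treated females (16.7 and 40.2 CPM). Adipocyte markers summed to 30.3 CPM in M7, beside 297 to 550 CPM in the rest of its group, and to 57.5 CPM in F11, beside 112 to 1706 CPM.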

How the results depend on the processing

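Per1 and Cry2 were called in males in all 33 alternatives, with edgeR's adjusted p up to 0.00333 and 3.14e-05, and no member was called between vehicle-treated males and females in any. In females 2 members (Npas2 and Per3) were called at a threshold of 0.05, by DESeq2 and by limma-voom, 1 (Per3) with median of ratios scaling and with the filterByExpr filter, and 0 to 2 when 1 mouse was left out (2 without F1, and 1 without each of F3, F4, F6 and M7). Cry2 alone passed the test of the difference between sexes (1 member) at a threshold of 0.05 and by DESeq2, where all genes called rose from 90 to 1648 and 896. That count was 693 by limma-voom, 10 without the filter and 1 to 895 when 1 mouse was left out. Asking for a log2 fold change beyond 1 left 0 members between treated males and females. Over all genes, females fitted alone gave 550 calls in place of 1748, and of 16 other clock genes then 0 rose and 2 fell by edgeR.

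Of 28 pairs, 16 passed, and 8 passed by Spearman's rho, 2 in males alone and 0 in treated mice alone (chosen after seeing the data). Without the 2 mice farthest for the first gene of each pair 2 passed, and 9 to 17 when 1 mouse was left out. Clock with Per2 had r = 0.037 in treated mice alone. Other sign changes were of uncalled log2 differences. Without the 5 mice over 1000 CPM of hepatocyte markers (chosen after seeing the data), Cry1 had 0.073 in males, 0.10 in females and -0.029 for the difference between sexes, Per2 -0.092 in females and Arntl -0.21 between treated sexes. Over all genes that fit called 2423 in males in place of 3426, 457 in females in place of 1748, 3 for the difference between sexes and 294 in place of 3043 between treated sexes, with fewer mice and fewer genes tested. In males Arntl had -0.056 without F10 and M8 and -0.080 to 0.28 without 1 mouse, Clock -0.0055 by limma-voom, -0.022 without F10 and M8 and -0.027 to 0.13 without 1 mouse, Npas2 -0.17 to 0.0062 and Cry1 -0.11 to 0.060 without 1 mouse. In females Cry1 had -0.19 to 0.042. For the difference between sexes, Arntl had -0.28 to 0.11, Per2 -0.013 to 0.63 and Cry1 -0.071 to 0.16 without 1 mouse, and Cry1 -0.023 without F10 and M8. Between vehicle-treated sexes, Arntl had -0.081 to 0.31 and Per2 -0.26 to 0.34. Between treated sexes, Arntl had -0.10 without F10 and M8 and -0.082 to 0.14 without 1 mouse. The cause of these changes was not tested.

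Males and females of a treatment share numbers, which 7 of 11 pairs followed with r above 0.1 (-0.38 to 0.48). By treatment, r ran from 0.085 to 0.48 in vehicle-treated pairs and from -0.38 to 0.24 in treated pairs. Of 22 mice, 8 correlated best with their own number, and the numbers were not taken to pair mice. The permutation test of member pairs thus took mice as independent, and the part of a factor shared by number was not tested. With a replicate block, 0 members were called for the difference between sexes, 0 between vehicle-treated and 1 between treated sexes, as without it; Per2 between vehicle-treated sexes had 0.046. Npas2, with 653 counts in all, is limited by depth.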
